A study of Drosophila melanogaster with 56 samples.

Results

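Glycolysis splits glucose into pyruvate in a chain of cytosolic enzymes, and lactate dehydrogenase can then turn pyruvate into lactate. The genes described here encode one enzyme for nearly every step of that chain in Drosophila melanogaster, and they were chosen by name: Hex-A, Pgi, Pfk, Ald1, Tpi, Gapdh1, Pglym78, Eno, Pyk and Ldh. Of these 10 genes, 8 had a probe set under their name in the array annotation used here, 9 probe sets in all, out of 11982 genes with a probe set of their own. Pyk, for pyruvate kinase, and Ldh, for lactate dehydrogenase, were not analysed here.

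In flies, sugar enters the chain from the diet, from circulating trehalose and from stored glycogen. Muscle, brain and photoreceptors rely on it, and flux through it is known to be set to a large degree by allosteric control of its enzymes, phosphofructokinase above all, so that the amount of a transcript is only one of several controls. During fasting, animals are known to shift from sugar towards stored fat.

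The study asked how transcripts change in flies deprived of food. Total RNA from 6 pools of flies was amplified and hybridised to 56 one-colour Affymetrix arrays, covering the antenna, the maxillary palp together with the proboscis (called palp here), the head and the body. The baseline groups at 0 h held 4 antenna arrays and 5 arrays of each other part, the groups fasted for 24 h held 5 arrays of each part, and those fasted for 48 h held 5 antenna arrays and 4 arrays of each other part. The labels state no strain, sex or age, and no fed flies at 24 or 48 h are among the samples, so fasting and elapsed time cannot be told apart.

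The values are log2 signals, on which a difference of 1 is a doubling. They ran from 2.08 to 15.4 and had a median of 4.04 on every array, so all arrays share one scale, and these values are blind to how much RNA a sample yielded. Signals of different probe sets are not compared with each other. At 0 h, the median level of 6 antenna markers on the array was 11.77 to 12.20 in antenna and at most 4.58 elsewhere, and that of 7 palp and proboscis markers was 7.05 to 8.24 in palp and at most 2.19 elsewhere, although Gr5a was below 4 on every palp array. The median of 4 photoreceptor markers was 14.44 to 14.79 in head. On some arrays transcripts of other organs were high: the median of 7 gut markers spanned 2.25 to 12.0 in antenna and 2.27 to 13.15 in head at 0 h, and that of 7 testis markers spanned 2.62 to 10.74 in palp at 24 h. The 5 arrays that stand apart, which are replicate 2 at 0 h in antenna, palp and head and, at 24 h, replicate 1 of antenna and replicate 2 of palp, were kept, and results that change without them are given both ways. These arrays were listed by name and not by a numeric cutoff. No body array is among them, although the median of 7 fat body markers spanned 2.47 to 9.49 in body at 48 h. Of these markers 4 (Yp1, Yp2, Yp3 and Fbp1) were below 4 on every body array at 0 and at 24 h. Their median in body is therefore no measure of fat body content.

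**Figure D1:**
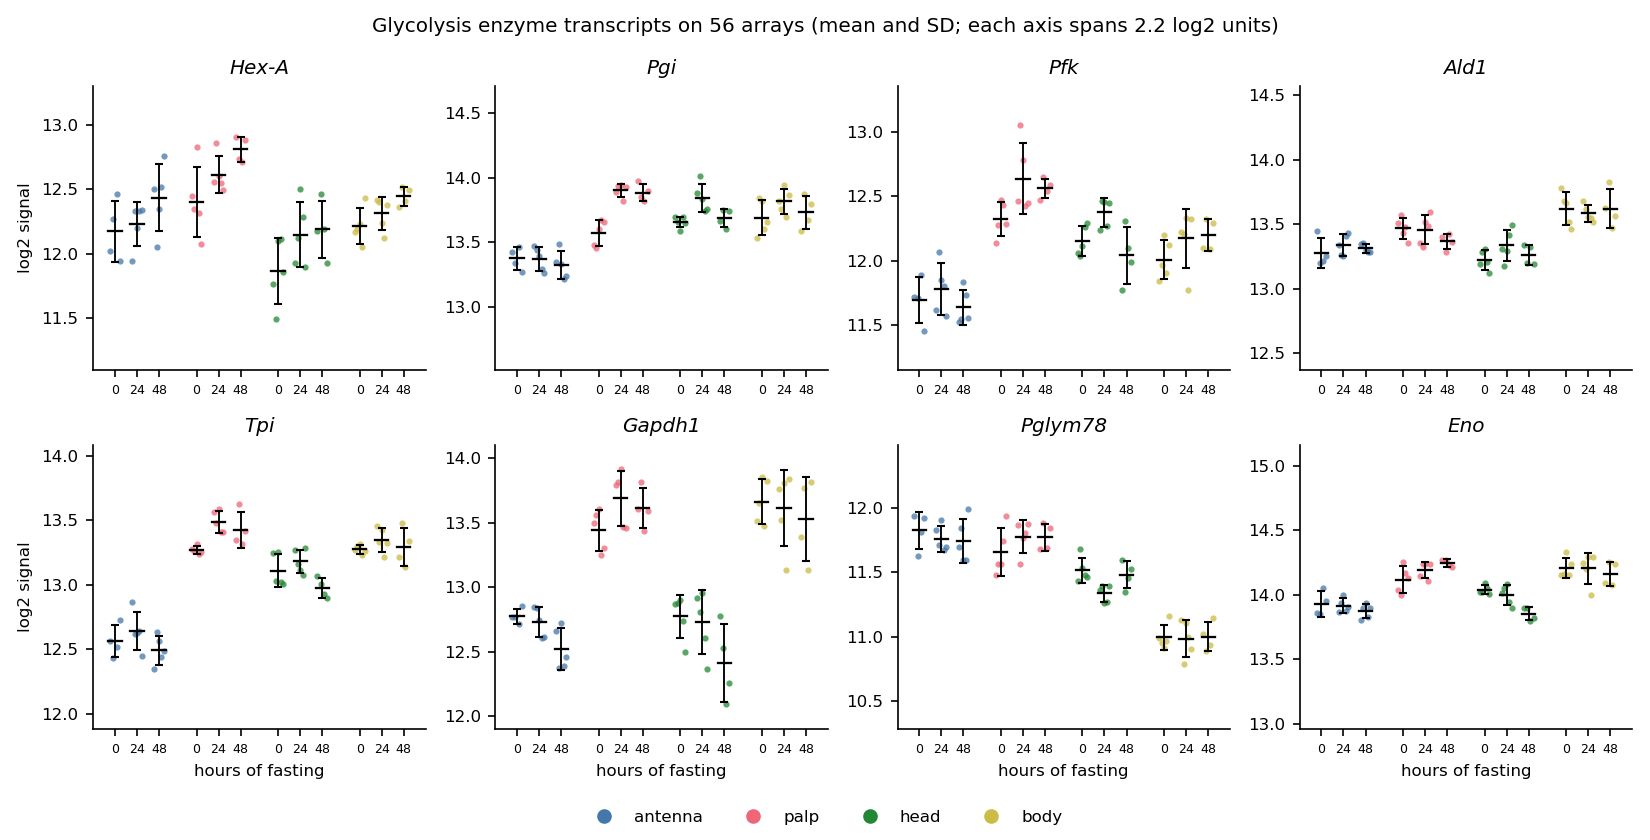
Log2 signal (y axis) of the 8 glycolysis genes against hours of fasting (x axis) in each body part; each point is 1 array, and bars give the mean and SD. Every panel spans the same range of log2 units, and the points of a part lie at nearly the same height at 0, 24 and 48 h, with Pgi in palp among the exceptions.

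Transcripts of the 8 enzymes moved little as food was withheld. Of the 64 differences from 0 h (8 genes, 4 parts, 2 times), 4 passed an adjusted p of 0.05 in limma, a linear model fitted to all features with Benjamini-Hochberg adjustment, and all 4 were rises in palp. In size, 55 of the 64 were under 0.25 log2 units and none reached 0.5, with a median of 0.0927 and a largest value of 0.41. The 95% intervals lay within 0.5 on either side of 0 for 56 of the 64, and the widest bounds were -0.70 and 0.69. A miss of the threshold does not show that a level stayed the same, and these intervals give what the arrays leave possible. Differences at 24 and at 48 h share their 0 h arrays. In these counts Ald1 stands by the brighter of its 2 probe sets, and the other is described below.

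At 48 h against 0 h the median size of a difference was larger over all features than over the 8 genes in every part. In body at 48 h against 0 h, 50.8% of all 9336 tested features were called and the median size of a difference was 0.45, whereas none of the 8 genes was called and their median size was 0.04. In head the median sizes at 48 h were 0.29 for all features and 0.12 for the 8 genes, in antenna 0.21 and 0.06, and in palp 0.29 and 0.16. At 24 h against 0 h the sizes in palp were close, 0.25 and 0.22, and between 24 and 48 h in head the 8 genes had the larger one, 0.15 beside 0.13. The glycolysis genes all have high signals. Among the 2316 features with a mean log2 signal of at least 11, a limit chosen after the values were seen, 40.7% were called in body at 48 h and the median size was 0.224. Against such features the 8 genes were not the steadier group everywhere: the median size of these bright features was 0.171 in palp at 24 h, and between 24 and 48 h it was 0.098 in head and 0.07 in antenna, where that of the 8 genes was 0.15 and 0.10.

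**Figure D2:**
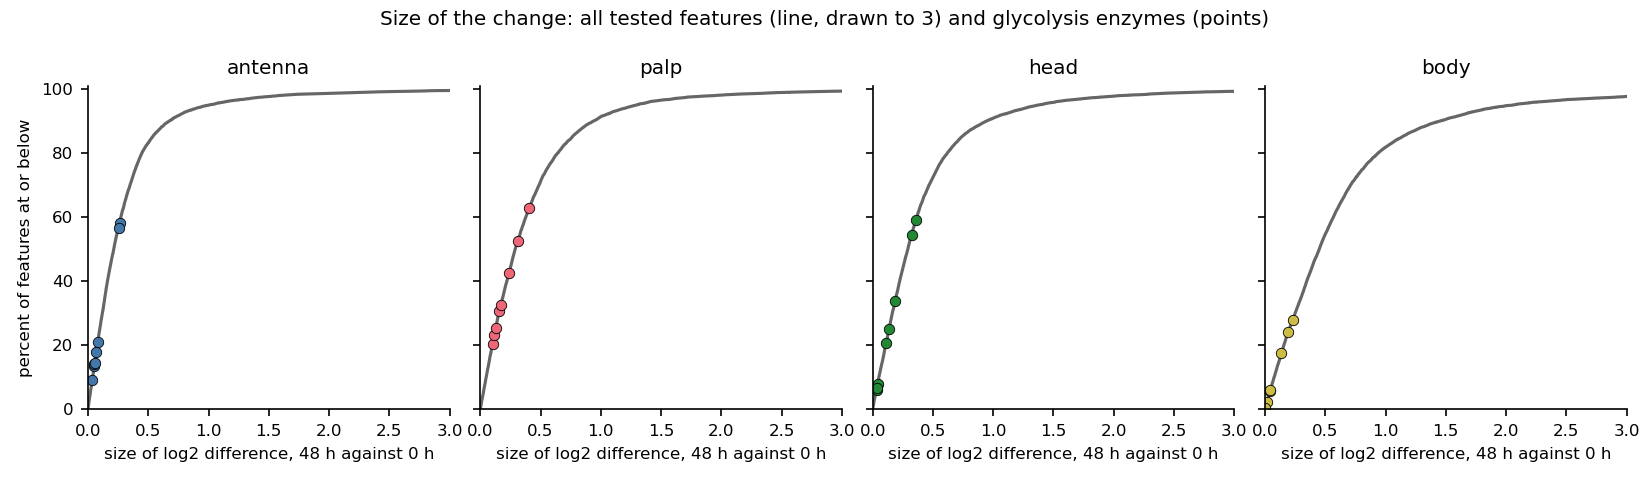
Percent of tested features (y axis) whose log2 difference between 48 and 0 h was at or below a given size (x axis, log2 units), for all features (line) and the glycolysis genes (points), in each body part. In body all 8 points lie at or below the 28.0 percentile, and in palp they reach the 62.8 percentile.

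In palp, which holds the taste and smell organs around the mouth and the muscles that move the proboscis, 2 of 8 genes rose at 24 h, where 23.5% of all features changed and 11% rose, and 2 of 8 rose at 48 h, where 33.1% changed and 17.4% rose. The genes called were Pgi at both times, Tpi at 24 h and Hex-A at 48 h. The share of members that changed in either direction is thus close to that of all features. Between 24 and 48 h none of the 8 was called (4.22% of all features), and none had an unadjusted p under 0.05.

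Pgi encodes glucose-6-phosphate isomerase, which turns glucose 6-phosphate into fructose 6-phosphate at the second step. Its log2 signals in palp were 13.48, 13.46, 13.60, 13.67 and 13.66 at 0 h. After 24 h the arrays read 13.89, 13.93, 13.94, 13.82 and 13.93, and after 48 h 13.97, 13.85, 13.82 and 13.89. Every fasted array lay above every unfasted one, a separation seen for 17.2% of all features at 24 h and 28.4% at 48 h. The rise was 0.33 ± 0.07 (SE) at 24 h (1.26-fold, adjusted p = 0.0038 in limma) and 0.31 ± 0.07 at 48 h (1.24-fold, adjusted p = 0.00477). It was seen in 4 of 4 pools sampled at 0 and 24 h and in 3 of 3 sampled at 0 and 48 h, and it was called under every alternative tried.

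Tpi encodes triosephosphate isomerase, which interconverts the 3-carbon products of aldolase. In palp its signals ran 13.28, 13.26, 13.32, 13.24 and 13.25 before fasting and 13.56, 13.48, 13.59, 13.41 and 13.41 at 24 h, with no overlap. They were 13.34, 13.62, 13.32 and 13.42 at 48 h, where the lowest array equalled the highest unfasted one to the second decimal. The rise at 24 h was 0.22 ± 0.07 (1.17-fold, adjusted p = 0.0435 in limma), and the difference at 48 h was 0.16 ± 0.08 (adjusted p = 0.142). The 24 h call is close to the threshold: it was lost without the 5 arrays that stand apart (adjusted p = 0.104), with cyclic loess scaling (0.104) and without any 1 of 10 single arrays of palp (up to 0.103).

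Hex-A encodes the hexokinase that phosphorylates glucose in most tissues of the fly. Its palp signals ran 12.44, 12.35, 12.83, 12.32 and 12.07 before fasting and 12.91, 12.73, 12.71 and 12.88 at 48 h. The groups overlap, because replicate 3 at 0 h stands as high as the fasted arrays. The rise at 48 h was 0.41 ± 0.13 (1.33-fold, adjusted p = 0.0288 in limma) and was seen in 2 of 3 pools. With the pool as a fixed block it was 0.36 and no longer passed (adjusted p = 0.0785), and it was also lost with no filter on dim probe sets (0.0547), with cyclic loess scaling (0.0552) and without palp replicates 2, 4 or 5 at 0 h or 1 or 4 at 48 h (up to 0.0834).

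The other palp members did not pass. Pfk, for phosphofructokinase, the main regulated step, differed from 0 h by 0.31 ± 0.12 at 24 h (adjusted p = 0.0751 in limma, and 0.0435 in a single fit over 56 arrays) and by 0.24 ± 0.13 at 48 h (0.174). Gapdh1, for glyceraldehyde-3-phosphate dehydrogenase, differed by 0.25 ± 0.12 (0.136) and 0.17 ± 0.12 (0.316), and by 0.27 with the pool as a fixed block at 24 h, where it passed (0.0351). Pglym78, a phosphoglycerate mutase, and Eno, for enolase, differed by 0.08 to 0.13 at both times. Ald1, for aldolase, was the member with negative differences, -0.01 and -0.10, by the brighter of its 2 probe sets. Its other probe set rose at 24 h by 0.39 ± 0.11 (adjusted p = 0.0203 in limma with every probe set tested). The median over the 8 genes was 0.22 at 24 h and 0.16 at 48 h, beside -0.02 and 0.02 over all features.

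Muscle markers moved in palp as well. The median level of the 10 muscle markers on the array was 13.33 to 13.64 at 0 h, 13.66 to 13.82 at 24 h and 13.66 to 13.80 at 48 h. At 24 h 5 of 10 rose, beside 11% of all features, and at 48 h 2 of 10, beside 17.4%. None of the muscle markers was below 4 on every array. Their part in the palp rises was not tested. In bulk tissue, more cells of a type and more RNA per cell cannot be told apart. The 3′ minus 5′ signal of the eIF-4a and Act5C control transcripts, a measure of RNA quality, went from 3.13 ± 1.19 (SD, n = 5) at 0 h to 4.16 ± 1.23 (n = 5) and 3.78 ± 0.80 (n = 4).

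**Figure D3:**
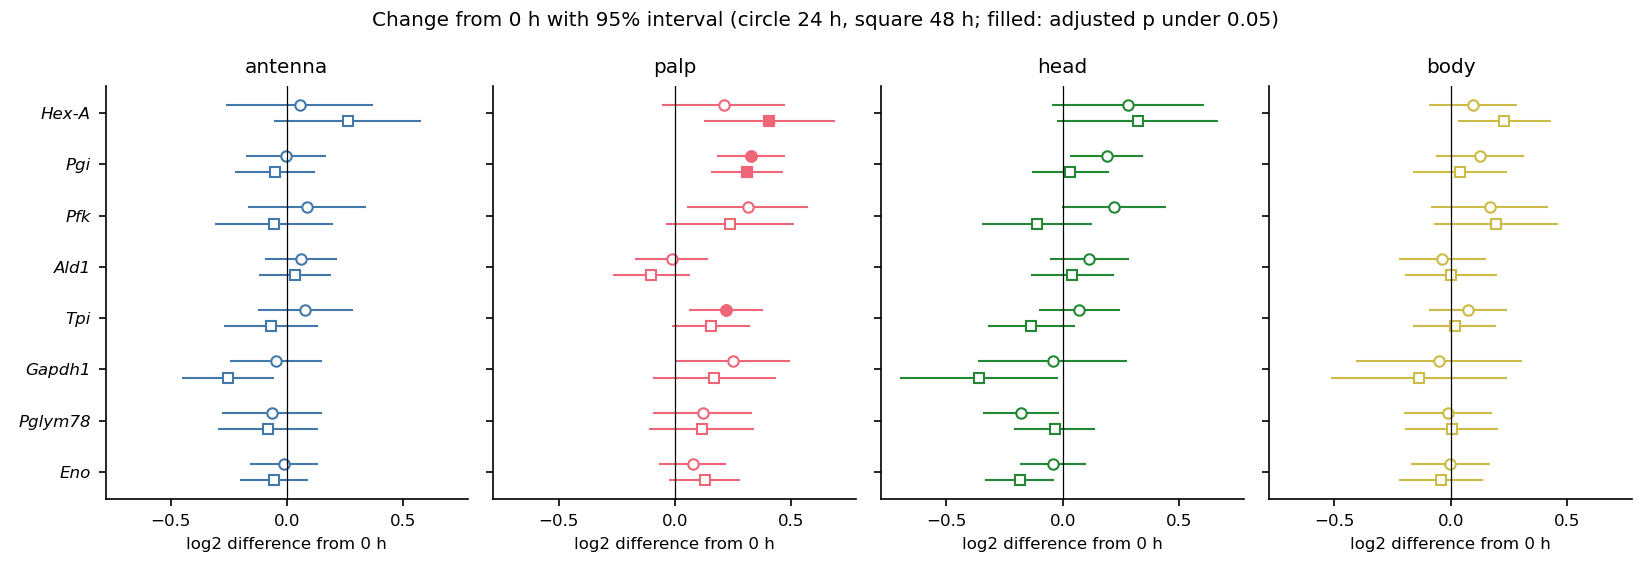
Log2 difference from 0 h (x axis) of each glycolysis gene (y axis) at 24 h (circles) and 48 h (squares) with its 95% interval from limma; filled symbols have an adjusted p under 0.05. The filled symbols are Hex-A, Pgi at both times and Tpi, all in palp.

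In head, none of the 8 genes was called at 24 h (17.2% of all features), at 48 h (25.5%) or between these times (1.37%). In each comparison 2 had an unadjusted p under 0.05. The share of all features under this unadjusted limit was not computed, here or below, and is at least the share called. Such counts are a description only. Eno came closest. It read 14.02, 14.02, 14.09, 14.06 and 14.00 before fasting and 13.90, 13.90, 13.79 and 13.82 at 48 h. All 4 fasted arrays lay below all unfasted ones, as for 19.6% of all features, and the difference was -0.19 ± 0.07 (adjusted p = 0.0658 in limma). It passed with the pool as a random block (adjusted p = 0.0186) and with 3 other settings.

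Gapdh1 in head read 12.87, 12.88, 12.90, 12.74 and 12.50 at 0 h and 12.78, 12.53, 12.09 and 12.26 at 48 h. The 48 h arrays spread more widely and overlap the unfasted ones. The difference of -0.36 ± 0.16 did not pass (adjusted p = 0.11 in limma), although it was negative in 3 of 3 pools. With the pool as a fixed block it passed (-0.35, adjusted p = 0.0284), as it did without replicate 1 at 48 h (-0.48, 0.0435).

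Between 24 and 48 h in head, Pgi, Pfk, Tpi, Gapdh1 and Eno each read lower in 4 of 4 pools, and Pglym78 read higher in 4 of 4. The share of all features that moved the same way in every pool was not computed, so these counts are a description only. Pfk had the smallest p, with a difference of -0.33 ± 0.11 (adjusted p = 0.186 in limma), and it passed with the pool as a random block (0.0363).

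At 24 h in head, 2 other members separated from 0 h without passing, beside 11.8% of all features. Pgi read 13.59 to 13.69 (median 13.66) at 0 h and 13.74 to 14.01 (median 13.83) at 24 h, a difference of 0.19 ± 0.07 (adjusted p = 0.0896 in limma, and 0.0374 with the pool as a fixed block). By 48 h its difference from 0 h was 0.03 ± 0.08. Pglym78 read 11.43 to 11.68 at 0 h and 11.26 to 11.40 at 24 h (-0.18 ± 0.08, adjusted p = 0.119). Treating the pool as a random block, Pgi, Pglym78 (0.0356) and Pfk (0.24, 0.0353) all passed at 24 h. Gut markers in head had a median level of 7.27 at 0 h, 12.17 at 24 h and 9.57 at 48 h (medians over arrays). Single arrays spanned 2.27 to 13.15 at 0 h, 10.25 to 12.62 at 24 h and 6.68 to 11.46 at 48 h, so the times overlap. At 24 h 4 of 10 muscle markers rose, beside 17.2% of all features that changed in either direction. The 3′ minus 5′ signal averaged 3.74, 5.08 and 5.61. The part of these markers and of this signal in the head values was not tested, apart from a limma fit with the signal as a covariate. In that fit Hex-A passed at 24 h (0.43, adjusted p = 0.045) and at 48 h (0.52, 0.0264) and Pglym78 at 24 h (-0.23, 0.0492).

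In antenna, the main smell organ, no member was called at 24 h (5.73% of all features), at 48 h (17.6%) or between them (0.1%), and 0, 1 and 1 had an unadjusted p under 0.05. Gapdh1 had the smallest adjusted p. It read 12.77, 12.77, 12.72 and 12.85 at 0 h and 12.67, 12.38, 12.73, 12.39 and 12.46 at 48 h, so that 1 fasted array just reached the unfasted range. The difference was -0.25 ± 0.09 (adjusted p = 0.0732 in limma), and it passed without the 48 h array of replicate 3 (-0.30, 0.0414). Hex-A differed by 0.26 ± 0.15 (0.238). The other 6 genes lay within 0.09 of their 0 h level at both times.

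In body, no member was called at 24 h (21.2% of all features), at 48 h (50.8%) or between them (6.44%), with 0, 1 and 0 at an unadjusted p under 0.05. Hex-A had the smallest adjusted p. It read 12.17, 12.19, 12.23, 12.05 and 12.43 at 0 h and 12.36, 12.52, 12.41 and 12.49 at 48 h, higher in 3 of 3 pools but with replicate 5 at 0 h inside the fasted range. The difference was 0.23 ± 0.09 (adjusted p = 0.0531 in limma). With the pool as a fixed block it was 0.34 and passed (adjusted p = 0.0242), as did Pfk (0.30, 0.0457), and without replicate 5 at 0 h Hex-A passed as well (0.28, 0.0241). Ald1, Pglym78, Tpi, Eno and Pgi lay within 0.05 of 0 h at 48 h.

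Whether the change from 0 to 48 h differed between parts was tested directly in a fit over all 56 arrays. Between palp and head 1 of 8 genes was called (3.71% of all features): Eno moved 0.32 ± 0.09 more in palp than in head (adjusted p = 0.0268 in limma). Between antenna and palp 1 of 8 was called (4.46%): Pgi moved by -0.36 ± 0.10 in antenna relative to palp (adjusted p = 0.024). Both calls were lost without the 5 arrays that stand apart (0.0742 for Eno, 0.0624 for Pgi), with cyclic loess scaling (0.276 and 0.101) and without several single arrays (up to 0.0713 and 0.0703). With the pool as a fixed block, 2 members were called between palp and head, the second being Gapdh1 (0.53, 0.0308). Between antenna and head (4.39%) and between body and head (19.8%) no member was called, and none had an unadjusted p under 0.05. Between palp and head, Pgi, Pfk, Tpi and Gapdh1 had an unadjusted p under 0.05 in limma without being called. The same held for Tpi, Gapdh1 and Eno between antenna and palp. How many of all features did so was not computed.

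Before fasting the parts already differed. As deposited, the range of a gene's mean over the 4 parts at 0 h was 0.89 for Gapdh1, 0.83 for Pglym78, 0.72 for Tpi, 0.63 for Pfk, 0.54 for Hex-A, 0.40 for Ald1, 0.32 for Pgi and 0.28 for Eno. For Pgi the largest difference between times, 0.33 in palp, was as large as this range. The order depends on the processing: with cyclic loess Pglym78 stood 0.17 above head in antenna and 0.00 above head in body, and by its other probe set Ald1 had means from 10.82 in antenna to 13.49 in body.

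Antenna stood low for Tpi, Pfk and Pgi. Against head, 4 of 8 genes were called, beside 49% of all features (26.4% higher, 22.5% lower): Tpi (-0.55 ± 0.07, adjusted p = 3.52e-06 in limma), Pfk (-0.46 ± 0.10, 0.000904) and Pgi (-0.28 ± 0.08, 0.00486) were lower and Pglym78 (0.31 ± 0.10, 0.0124) was higher. With cyclic loess scaling 4 were lower and 0 higher, since Pglym78 no longer passed (0.17, 0.162) and Eno did (-0.21, 0.035). Against palp, 5 of 8 were lower in antenna, beside 43.7% of features called, 20.6% lower: Tpi (-0.71), Gapdh1 (-0.67), Pfk (-0.63), Pgi (-0.20) and Eno (-0.19). Without the 5 arrays that stand apart 3 were called, and Pgi (0.0848) and Eno (0.0774) were not. The same number was left without antenna replicate 2 or palp replicate 3 or 4 at 0 h. Blocking on the pool, as a fixed term, cost Pgi its call (0.0827) and gave one to Ald1 (-0.18, 0.0479; -0.19, 0.0569 without the block). Ald1 was also called with no filter on dim probe sets (0.0424), cyclic loess (0.0165) and array weights (0.0142).

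Tpi shows the pattern in single arrays. At 0 h it read 12.57, 12.43, 12.52 and 12.73 in antenna, 13.24, 13.03, 13.25, 13.02 and 13.01 in head, and 13.28, 13.26, 13.32, 13.24 and 13.25 in palp. The highest antenna array lay below the lowest array of either other part. Body read 13.23 to 13.32 (median 13.27), level with palp.

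Palp and body stood high for Gapdh1. At 0 h it read 12.77, 12.77, 12.72 and 12.85 in antenna and 12.87, 12.88, 12.90, 12.74 and 12.50 in head. It read 13.50, 13.56, 13.60, 13.25 and 13.31 in palp and 13.52, 13.66, 13.86, 13.48 and 13.82 in body. Palp and body arrays all lay above those of antenna and head, while antenna and head had the same mean, 12.78. Palp was 0.67 ± 0.10 above head (1.59-fold, adjusted p = 1.45e-05 in limma) and body 0.89 ± 0.10 above head (1.85-fold, 1.37e-07). Palp against head had 3 of 8 genes called, all higher, beside 53.9% of features called and 30.7% higher; the others were Hex-A (0.54 ± 0.14, 0.00404) and Ald1 (0.25 ± 0.07, 0.00862). The median muscle marker level at 0 h was 13.33 to 13.64 in palp and 13.27 to 13.75 in body against 11.39 to 11.85 in head and 10.53 to 11.71 in antenna, and its part in these differences was not tested.

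Against head, body had 6 of 8 members called, beside 85.9% of features (31.4% higher, 54.5% lower). Higher were Gapdh1, Ald1 (0.40 ± 0.07), Hex-A (0.35 ± 0.14), Tpi (0.17 ± 0.07) and Eno (0.17 ± 0.06), and lower was Pglym78 (-0.52 ± 0.09, adjusted p = 3.36e-05 in limma). Here the scaling matters: the median of all features was -0.55 as deposited and 0.26 with cyclic loess, where 4 members were higher and 0 lower, Pglym78 was at 0.00 (adjusted p = 0.996) and Eno at 0.02 (0.832). Without body replicate 3 at 0 h, Hex-A, Tpi and Eno were not called. Hex-A (adjusted p = 0.121) and Tpi (0.0769) were not called without the 5 arrays that stand apart, nor without some single head arrays (up to 0.1 and 0.076). As deposited, Pglym78 read 10.91 to 11.16 (median 10.97) in body and 11.43 to 11.68 (median 11.48) in head.

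Ald1 gave different answers from its 2 probe sets. The one used above, with the higher mean, read 13.20 to 13.45 in antenna and 13.12 to 13.31 in head at 0 h. The other read 10.76, 10.25, 11.19 and 11.09 in antenna, 12.98, 12.84, 13.03, 13.20 and 12.62 in head, 12.49, 12.21, 12.59, 12.81 and 12.63 in palp, and 13.47, 13.41, 13.59, 13.61 and 13.35 in body. By this probe set antenna lay far below every other part, -2.11 ± 0.17 against head (adjusted p = 5.07e-09 in limma with every probe set tested), where the first gave 0.05 ± 0.08. Palp lay -0.39 ± 0.16 below head (0.0465), while the first probe set placed it 0.25 above.

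With fasting, too, the probe sets parted in palp. The second rose at 24 h by 0.39 ± 0.11 (adjusted p = 0.0203 in limma), against -0.01 for the first, and its difference at 48 h was 0.29 ± 0.11 (0.0738). Its change to 48 h in antenna relative to palp was -0.72 ± 0.21 (0.0373). Which transcripts of Ald1 each probe set reads was not settled here, so neither can be taken as the level of the gene as a whole.

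**Figure D4:**
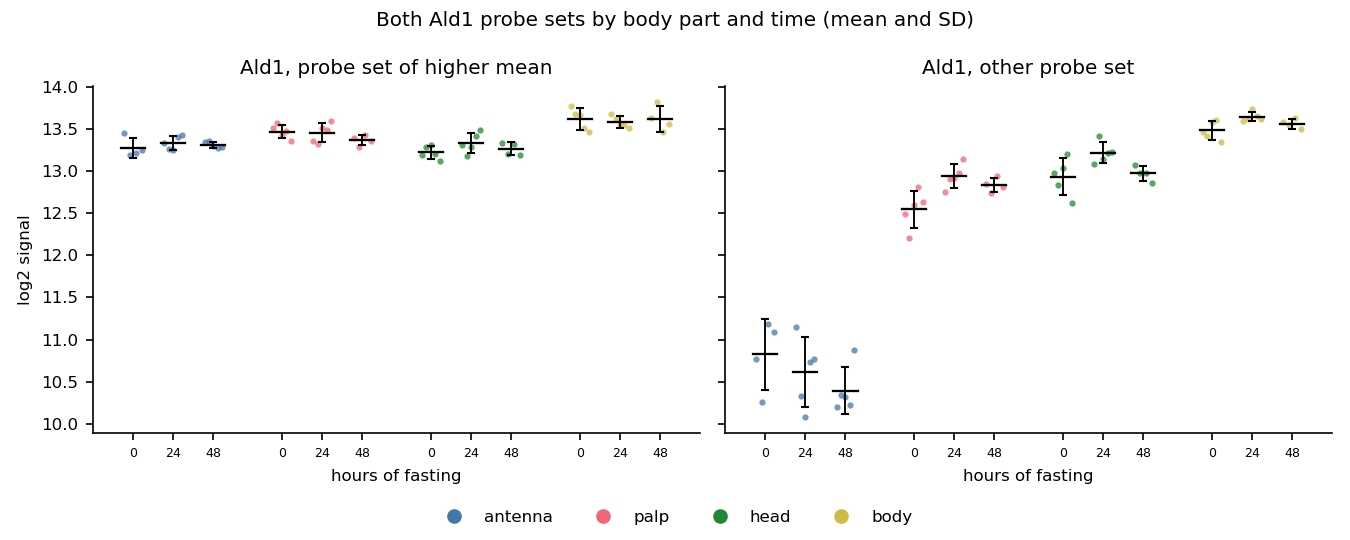
Log2 signal (y axis) of both Ald1 probe sets against hours of fasting (x axis) by body part; each point is 1 array, and bars give the mean and SD. On the left all groups lie close together, and on the right the antenna arrays lie between 10.08 and 11.19, below all arrays of the other parts.

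The step between those of Gapdh1 and Pglym78, from 1,3-bisphosphoglycerate to 3-phosphoglycerate, is made by phosphoglycerate kinase, encoded by Pgk. In body Pgk read 11.55, 11.80, 11.98, 11.82 and 11.97 at 0 h and 10.97, 11.58, 11.12 and 11.60 at 48 h, with an overlap of the highest fasted arrays with the lowest unfasted one. Pgk fell by 0.50 ± 0.18 (adjusted p = 0.0305 in limma), in 3 of 3 pools, but not with the pool as a fixed block (-0.39, 0.104) and not without replicates 3, 4 or 5 at 0 h or 1 or 3 at 48 h (up to 0.105). No other difference between times was called for Pgk without the block. With it Pgk rose in palp at 24 h (0.28, 0.0264; 0.20, 0.257 without it), where 4 of 4 pools were higher. At 0 h it was lower in antenna than in palp by -0.51 ± 0.12 (0.00137).

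A relative of a glycolysis gene changed far more than any of the 8. CG7059 is annotated from its sequence as a member of the phosphoglycerate mutase family, like Pglym78. In palp it read 7.03, 6.80, 6.94, 6.81 and 8.29 at 0 h, 11.58, 12.00, 11.003, 11.40 and 12.10 at 24 h, and 12.86, 12.02, 12.03 and 12.03 at 48 h. No fasted array came near an unfasted one. The rise was 4.44 ± 0.30 at 24 h and 5.06 ± 0.32 at 48 h (adjusted p = 2.57e-07 in limma), while Pglym78 differed by 0.12 at both times and was not called.

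CG7059 rose in the other parts as well. At 48 h the rise was 2.82 ± 0.18 in antenna (adjusted p = 6.72e-07 in limma), 2.91 ± 0.18 in head (2.35e-07) and 0.71 ± 0.12 in body (0.000439). Body started highest, at 11.85 to 12.20 on its 0 h arrays, where antenna read 8.78 to 9.48 and head 8.95 to 9.56. After 48 h antenna (11.62 to 12.41), head (11.92 to 12.78) and palp (12.02 to 12.86) had come to overlap, and body read 12.46 to 12.89. The rise in palp exceeded that in head by 2.15 ± 0.32 (5.55e-06).

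**Figure D5:**
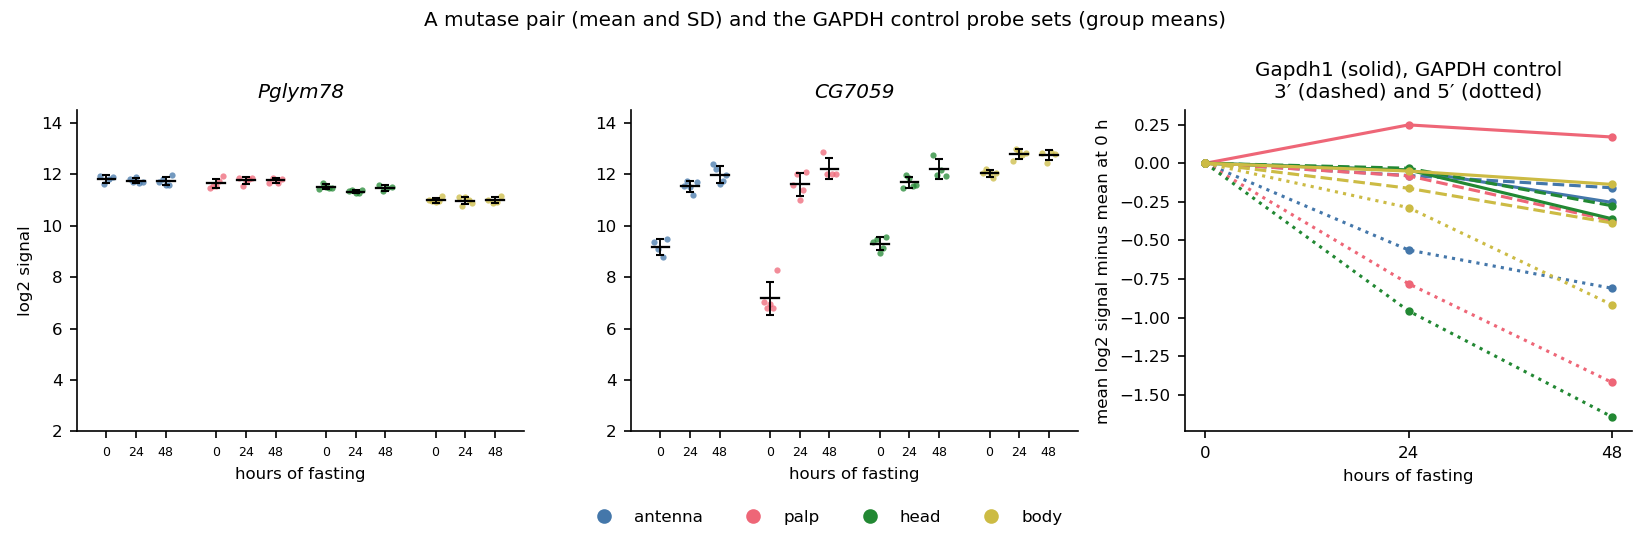
Left and centre, log2 signal (y axis) of Pglym78 and of CG7059 against hours of fasting (x axis), 1 point per array with the mean and SD. Right, group means of Gapdh1 and of the 3′ and 5′ GAPDH control probe sets minus their 0 h mean (log2 units); CG7059 lies higher at both fasted times in every part and most so in palp, the largest difference of Pglym78 from 0 h is -0.18, and the 5′ control line lies lowest within each part.

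The array also carries control probe sets for GAPDH along the transcript, whose gene copy the files do not name. Their 5′ probe set ranged from 8.54 to 10.97 in head before fasting and from 6.64 to 10.05 at 48 h. In palp it averaged 10.83, 10.05 and 9.41 at the 3 times. The 3′ probe set averaged 13.56, 13.53 and 13.28 in head and 13.49, 13.41 and 13.12 in palp, so its means moved less than the 5′ means. A second set of GAPDH controls moved more at its 3′ end, averaging 12.99, 12.20 and 11.84 in head and 13.21, 12.88 and 12.38 in palp. In body the first 3′ probe set read 13.53 to 13.68 at 0 h and 13.11 to 13.34 at 48 h. The first 5′ probe set read 11.66 to 11.87 and 10.77 to 11.03, and the second 3′ probe set 13.75 to 13.89 and 13.00 to 13.32. These 48 h arrays all lay below the 0 h arrays. The RNA quality measure averaged 1.59 and 1.90 in body at these times. Gapdh1 differed there by -0.14 ± 0.17 and was not called. Control probe sets were in none of the tests.

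Around the pathway, the counts of called genes at 48 h are to be read beside the share called over all features, which was 50.8% in body, 33.1% in palp, 25.5% in head and 17.6% in antenna. Of the sugar uptake and entry genes, 4 of 10 tested rose in palp at 48 h and none fell, 2 rose and 3 fell of 9 in head, 1 fell of 9 in antenna, and 2 rose and 3 fell of 10 in body, where that is the share of all features. The sugar transporter gene sut2 rose by 1.74 ± 0.26 in palp (adjusted p = 0.00021 in limma), sut3 rose by 1.72 ± 0.60 in body and sut1 fell there by 1.12 ± 0.20. Glyp, for glycogen phosphorylase, which releases glucose units from glycogen, fell by 0.79 ± 0.21 in head (0.0141).

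Of 5 gluconeogenesis genes, which run the chain backwards, 2 fell in antenna at 48 h, 1 fell in palp, 0 moved in head (limma), and 1 rose and 1 fell in body. Pepck1, for phosphoenolpyruvate carboxykinase, fell by 0.97 ± 0.20 in antenna (adjusted p = 0.00675). G6P, for glucose-6-phosphatase, rose by 0.59 ± 0.21 in body and PCB, for pyruvate carboxylase, fell there by 0.32 ± 0.12. The list for the fate of pyruvate and lactate also held genes that act on glycerol 3-phosphate, namely Gpdh1, Gpdh2, Gpdh3 and Gpo2. Of this list, 2 rose of 6 in antenna, 1 rose of 6 in palp, 1 fell of 6 in head, and 3 rose and 1 fell of 8 in body. Mpc1, a subunit of the mitochondrial pyruvate carrier, fell by 0.48 ± 0.12 in head, and of the glycerol-3-phosphate dehydrogenase genes Gpdh3 rose by 1.37 ± 0.47 in palp, Gpdh2 rose by 0.82 ± 0.17 in body and Gpdh1 fell by 0.30 ± 0.12 in body. Of 4 pentose phosphate genes 1 fell in antenna, 1 in palp and 2 in body, among them Rpe (-0.77 ± 0.17 in palp) and Rpi (-0.36 ± 0.10 in body). In body none of these 3 lists had a larger share called than the 50.8% of all features.

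Of the 7 listed regulators of glycolysis genes, 2 rose and 1 fell at 48 h in antenna, 3 rose and 1 fell in palp and in head, and 2 rose and 1 fell of 6 tested in body. Mondo and Bigmax form the pair that senses sugar, and sug encodes sugarbabe, a factor that this pair is known to induce on a sugar diet. At 48 h sug fell in all 4 parts, with log2 differences of -2.98 ± 0.90 in body, -2.63 ± 0.38 in head, -2.43 ± 0.46 in palp and -2.30 ± 0.36 in antenna (adjusted p from 0.000267 to 0.0161 in limma). In body sug read 9.50 to 10.74 at 0 h and 3.78, 9.18, 6.30 and 8.77 at 48 h, a wide spread that still lay below every unfasted array. In antenna sug read 6.31 to 7.63 at 0 h and 3.96 to 5.11 at 48 h. The latter is near the array median of 4.04, so the size of the fall there is not compared with that in other parts. Over the same time bigmax rose in every part, by 1.03 ± 0.14 in body, 0.88 ± 0.15 in head, 1.03 ± 0.10 in palp and 0.50 ± 0.11 in antenna. Mondo rose in antenna, palp and head (0.35 ± 0.11, 0.78 ± 0.12 and 0.47 ± 0.09) and differed by 0.10 ± 0.11 in body (0.46).

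Of the listed relatives of the glycolysis enzymes, 7 of 11 tested in body rose at 48 h and 1, Pgk, fell, beside 50.8% of all features called in either direction. CG11249, a further predicted relative, rose by 1.78 ± 0.58 (adjusted p = 0.0227 in limma) and CG7059 by 0.71. In body the median level of 7 testis markers was 13.17 to 13.42 at 0 h and 13.57 to 13.78 at 48 h, 4 of the 7 rose, and all 7 accessory gland markers fell. Their part in the rise of these relatives was not tested. In antenna 1 of 5 relatives rose, in palp 2 of 5 and in head 1 of 5, CG7059 among them each time.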

How the data were processed

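Per the labels' protocols, RNA came from Qiagen RNeasy columns and was amplified and biotin labelled with NuGEN Ovation kits. The deposited values are log2 signals, which the authors made with GCRMA per the submitters' processing notes. Sorted arrays differed by at most 0.033, so quantile scaling was already in them. No genome coordinates were used.

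Of 18952 probe sets, 183 controls were left out, 4720 had no gene and 402 several. Where a gene had several probe sets, the brightest on average stood for it, giving 17104 features. Features with fewer than 4 arrays of a fit at a log2 signal of 4 or more were not tested. Differences between times were fitted in limma 3.58.1 (R 4.3.3) with 3 group means per body part, unfasted differences on the 0 h arrays, and differences of change in a fit over 56 arrays, all two-sided with Benjamini-Hochberg adjustment over all tested features. Figures used matplotlib 3.10.9. The scripts were tested on simulated data.

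Samples of a pool are paired across times by the labels, in part: pool 9 has only 0 h arrays and pool 7 none at 0 h. Residuals of arrays sharing a pool correlated at 0.12, 0.13, 0.20 and 0.11 in antenna, palp, head and body, against -0.02, -0.03, -0.04 and -0.02 otherwise. The main fits had no block. A body 48 h array with conflicting replicate numbers was named by its title. Each pool is a mix of flies, and the same pools supplied the 4 parts, so arrays of different parts are paired as well. Arrays of a group come from different pools. The p-values of the main fits measure the spread within groups and take all arrays of a fit as independent. Only the alternative with the pool as a fixed block took the pairing across parts into account.

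The members and lists were chosen with earlier results of these data known. All members are named. From each other list, up to 4 genes are named, the 2 largest rises and 2 largest falls called at 48 h in any part, besides Pgk; further values of CG7059, sug, Mondo and bigmax follow from that. Gapdh2 was not analysed here. Promoter and protein sequences were not used here. The number of arrays limits the precision. Alternatives covered filter, scaling, pool block, array weights, probe set choice, RNA quality covariate, a single fit, the arrays that stand apart and each array left out. Testing every probe set was added after the data were seen.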

Additional observations from a re-analysis of the deposited data

Results flagged for a closer look

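Pfk in the body 24 h array of replicate 4 read 11.78, while the other 4 arrays of that group read 12.21 to 12.34. It was the only group with a sample this far from the rest among the 96 groups of 8 members, 4 parts and 3 times that were examined, where chance alone flags about 1 in 20. On the same array Gapdh1 (13.13) and Eno (14.00) were the lowest of their group.

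Some changes from 0 to 48 h differed between parts in limma's test of the difference itself. Eno moved 0.32 more in palp than in head, and Pgi moved by -0.36 in antenna relative to palp. For CG7059 the difference of the changes was 2.15 for palp minus head, -2.20 for body minus head and -2.24 for antenna minus palp.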

How the results depend on the processing

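Of 5120 recomputed differences under all alternatives, 4969 kept their side of the threshold, 79 lost a call, 68 gained one and 4 changed sign. Only sign changes with a call before or after were counted, so any between uncalled values lie among the 4969. The counted sign changes were of Ald1 with the mean of its probe sets, in unfasted antenna against head (-1.03) and palp against head (-0.0698). With cyclic loess they were of Pglym78 (0.000583) and Pgk (0.37), both in unfasted body against head. The cause was not tested. The counts of called members moved as follows. With cyclic loess, palp had 1 at 24 h and 1 at 48 h, body 1 at 48 h, and the comparisons of change 0 in palp against head and 0 in antenna against palp. With no filter, palp had 1 at 48 h and head 1 at 24 h and 1 at 48 h. With the pool as a fixed block, palp had 1 at 48 h, head 1 at 24 h and 1 at 48 h, body 2 at 48 h and the change in palp against head 2. With the pool as a random block, head had 3 at 24 h, 2 at 48 h and 1 between them, and body 1 at 48 h. The pool block moved no other count by more than 1.5 times. With a single fit over 56 arrays, palp had 3 at 24 h and head had 1 at 24 h and 1 at 48 h. With the 3′ minus 5′ covariate it had 2 and 1. With array weights, head had 1 at 24 h, 2 at 48 h and 1 between them, body 1 at 48 h, unfasted palp against head 5, unfasted body against head 3, and the changes 4 in palp against head and 2 in antenna against palp. Without the 5 arrays that stand apart, palp had 1 at 24 h, unfasted antenna against palp 3, and both of those changes 0. Leaving out each array in turn gave 1 to 2 in palp at 24 h and at 48 h, 0 to 1 at 48 h in antenna, head and body, 4 to 4 in unfasted antenna against head, 3 to 4 in palp against head, 3 to 6 in body against head and 3 to 6 in antenna against palp, and 0 to 1 for the changes in palp against head and in antenna against palp. The other counts stayed at 0. The 4 or 5 arrays of a group limit what can be told.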

Other observations

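The members did not rise and fall as one. After the mean of each body part was taken out, 19 of the 28 pairs of members had a positive correlation over the 56 arrays, with a median of 0.16 and a range of -0.297 to 0.686. These arrays share scaling and time points, so the values are a description. The genes outside the set whose pattern was most like that of the members, by mean correlation over the same 56 arrays, were CG9485 (0.361), trol (0.346), blw (0.345), CG17104 (0.339) and ATPsynC (0.336). They were picked as the highest of all named genes on these arrays. Their correlations with single members varied widely, for ATPsynC from -0.112 to 0.745, and only CG17104 had none below 0. Both blw and ATPsynC encode subunits of the mitochondrial ATP synthase, and trol encodes perlecan, a basement membrane proteoglycan.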
